A study of Homo sapiens with 4 samples.

Results

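The genes described here are 5 interferon ligands (IFNB1, IFNE, IFNL1, IFNL2 and IFNL3) and 5 chains of the receptors that bind interferons (IFNAR1, IFNAR2, IFNLR1, IL10RB and IFNGR1). They were taken by gene symbol from the deposited transcript tables, and they are 10 of the 27685 genes in those tables, with 18 of the 63714 transcripts. RNA was sequenced from HT-29, a human line derived from a colorectal adenocarcinoma often used to model the colonic epithelium. The wild-type cells carried a control vector, and the TRIM40-overexpressing cells stably expressed TRIM40, a protein of the tripartite motif family of ubiquitin ligases, with a Myc tag at its N terminus (Myc-TRIM40). Both kinds of cell were grown in RPMI with 10% fetal bovine serum and antibiotics, the labels list no treatment, and the study's methods describe puromycin selection of transduced cells. Each condition was sequenced in 2 experiments that the study describes as independent, which gave 4 libraries. All of them come from this 1 cell line. The labels do not say whether the cells of a condition were a clone or a pool, and replicate spread here is the spread between these libraries.

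Interferons are secreted proteins by which a cell announces infection or damage to itself and to its neighbours. Type I interferons, among them IFN-beta (IFNB1) and the epithelial IFN-epsilon (IFNE), signal through a receptor made of IFNAR1 and IFNAR2, whereas type III interferons, or IFN-lambdas (IFNL1, IFNL2, IFNL3), signal through IFNLR1 paired with IL10RB, a chain that is shared with the receptors of IL-10 and IL-22. Both receptors activate the kinases JAK1 and TYK2 and transcription factors that include STAT2 and IRF9, which switch on the interferon-stimulated genes (ISGs). IFNLR1 is largely restricted to epithelia, so type III interferon is regarded as the interferon of mucosal surfaces such as the gut. IFNGR1 belongs to the separate receptor of IFN-gamma, the type II interferon.

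The libraries held between 60954602 and 67424698 reads. The overexpressed gene TRIM40 had 0 reads in both control libraries, 272646 in the experiment 1 Myc-TRIM40 library and 110665 in that of experiment 2. Of 9 colonic epithelial marker genes all 9 had reads, and their summed level was between 6830 and 9400 FPKM (fragments per kilobase of transcript in a library scaled to 1000000 fragments). The 5 markers of plasmacytoid dendritic cells, the specialised producers of type I interferon, summed to between 0 and 0.0466 FPKM. Of these, 4 had no read in any library, LILRA4 and CLEC4C included, and TCF4 had between 0 and 25 reads. The 6 leukocyte markers summed to between 2.11 and 3.67 FPKM, the highest value being that of the experiment 1 Myc-TRIM40 library. Of these, 3 had no reads, CD3E and CSF1R included. The others were CD14 with 148 to 297 reads, ITGAM with 106 to 390 and PTPRC with 0 to 4. The 6 markers of fibroblasts and endothelium summed to between 0.38 and 1.09 FPKM, again highest in the experiment 1 Myc-TRIM40 library, and 3 of them had no reads. The others were COL1A1 with 123 to 352 reads, PECAM1 with 17 to 31 and PDGFRB with 5 to 13. The part of these markers in the results was not tested.

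Reads of IFNB1, IFNL1, IFNL2 and IFNL3 were seen together in a single library, so the stretch around the transcription start is shown for IFNB1, IFNL1 and IFNL2, from 250 bases before to 50 bases after it. These windows come from RefSeq on GRCh38.p14, and 9 of the 10 genes had an entry. Capitals mark the letters AANNGAAA, which interferon regulatory factors (IRFs) can bind, and the kappaB consensus, which NF-kappaB can bind, each searched on both strands with overlapping matches counted separately (a match on the opposite strand reads TTTCNNTT). The first sequence lies at chr9:21077893-21078192 on the minus strand, the second at chr19:39296157-39296456 on the plus strand and the third at chr19:39268146-39268445 on the plus strand.
IFNB1: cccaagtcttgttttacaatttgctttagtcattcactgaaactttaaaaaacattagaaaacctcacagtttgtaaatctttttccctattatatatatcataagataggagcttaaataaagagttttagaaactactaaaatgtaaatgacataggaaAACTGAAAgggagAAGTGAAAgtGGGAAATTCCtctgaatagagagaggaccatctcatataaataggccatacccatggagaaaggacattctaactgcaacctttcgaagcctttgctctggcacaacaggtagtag
IFNL1: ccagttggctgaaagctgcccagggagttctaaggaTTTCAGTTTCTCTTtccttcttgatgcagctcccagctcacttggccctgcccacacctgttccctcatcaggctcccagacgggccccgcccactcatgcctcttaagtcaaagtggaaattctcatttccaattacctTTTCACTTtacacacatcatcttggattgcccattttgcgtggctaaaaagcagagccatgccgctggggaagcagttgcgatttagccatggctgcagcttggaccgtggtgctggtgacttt
IFNL2: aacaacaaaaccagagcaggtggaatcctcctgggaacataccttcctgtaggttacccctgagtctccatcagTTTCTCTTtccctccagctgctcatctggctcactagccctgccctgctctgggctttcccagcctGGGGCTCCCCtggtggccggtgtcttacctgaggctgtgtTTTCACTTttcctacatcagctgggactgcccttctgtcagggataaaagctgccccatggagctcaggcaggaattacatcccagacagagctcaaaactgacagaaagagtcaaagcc

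The IFNB1 window held 2 IRF-type matches, closely followed by a kappaB match on the side of the start. The IFNL1 window held 3 IRF-type matches, of which 2 overlapped, and 0 kappaB matches. The IFNL2 window held 2 IRF-type matches with 1 kappaB match between them. The IFNL3 window that pairs with it was identical to that of IFNL2 at 299 of 300 positions and held the same numbers, and a second IFNL3 window, at another start, held neither. Among all 35116 windows of 300 bases, 5.66% held at least 2 IRF-type matches, 1.25% at least 3, 11.3% at least 1 kappaB match, and 0.37% at least 2 IRF-type matches together with a kappaB match. The windows of IFNE, IFNAR1, IFNLR1, IL10RB and IFNGR1 held no IRF-type match. An IFNGR1 window held 1 kappaB match, and the other windows of these genes held none. IFNAR2 was the gene without an entry. A match to these letters is a description of the window and not evidence of binding.

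IFNB1 (Entrez gene 3456, chromosome 9 from 21077104 to 21077962 in the coordinates of the files, which the submitters' processing notes give as hg19) encodes IFN-beta, the type I interferon that most cell types make first on sensing viral RNA or cytosolic DNA. It had 0 reads in the control library and 32 reads in the experiment 1 Myc-TRIM40 library, and 0 reads in both libraries of experiment 2. The transcript was therefore seen in 1 of the 4 libraries. With the control count set to a floor of 3 reads, IFNB1 was 10.4-fold higher in Myc-TRIM40 than in control cells in experiment 1. Reads were scaled by library size with edgeR's TMM factors. The 32 reads were taken as exact, so this fold is not a lower limit that covers counting error. In experiment 2 no fold could be formed. A count of 0 was treated as up to 3 reads, or 0.0479 RPM (reads in a library scaled to 1000000 reads) in the Myc-TRIM40 library. This floor is a convention and not a hard limit. In bulk RNA a few cells with many transcripts and many cells with few cannot be told apart.

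IFNL1 (Entrez gene 282618, chromosome 19 from 39786965 to 39789312) encodes IFN-lambda 1. It had 8 reads in the control library and 176 in the experiment 1 Myc-TRIM40 library, and 5 reads in each library of experiment 2. IFNL1 was 21.4-fold higher in Myc-TRIM40 cells in experiment 1, with a 95% counting interval from 10.6 to 50.4. In experiment 2 the ratio was 0.991, with an interval from 0.228 to 4.31. The 2 intervals do not meet, so the experiments differed by more than counting error. Such intervals (Clopper-Pearson) cover the counting of reads in 1 library against another and not the spread between experiments.

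IFNL2 (Entrez gene 282616, chromosome 19 from 39759157 to 39760732) and IFNL3 (Entrez gene 282617, chromosome 19 from 39734246 to 39735717) encode IFN-lambdas 2 and 3. IFNL2 had 65 reads in the experiment 1 Myc-TRIM40 library and 0 in each of the other 3 libraries. IFNL3 had 0 reads in the control library and 53 in the experiment 1 Myc-TRIM40 library, and 5 reads in the control library and 0 in the experiment 2 Myc-TRIM40 library. With the control count set to 3 reads, IFNL2 was 21.1-fold and IFNL3 17.2-fold higher in experiment 1, again without counting error. The 5 reads of IFNL3 in the second control library were all assigned to its transcript variant 2, whereas in the experiment 1 Myc-TRIM40 library variant 1 had 38 reads and variant 2 had 15.

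The split of reads between IFNL2 and IFNL3 is uncertain, because the genes are near copies of each other. The aligned reference transcripts of 737 and 656 bases shared 631 identical positions, with 25 mismatches and 81 gap positions. Of all 50-base windows of IFNL3, 32.9% occur unchanged in IFNL2, and of 100-base windows 5.92% do. No 50-base window of IFNL1 occurs in either gene (0 of 808). Summed over the pair, reads were 0 in the control and 118 in the experiment 1 Myc-TRIM40 library, and 5 and 0 in experiment 2. Over IFNL1, IFNL2 and IFNL3 together they were 8 and 294 in experiment 1, and 10 and 5 in experiment 2.

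**Figure D1:**
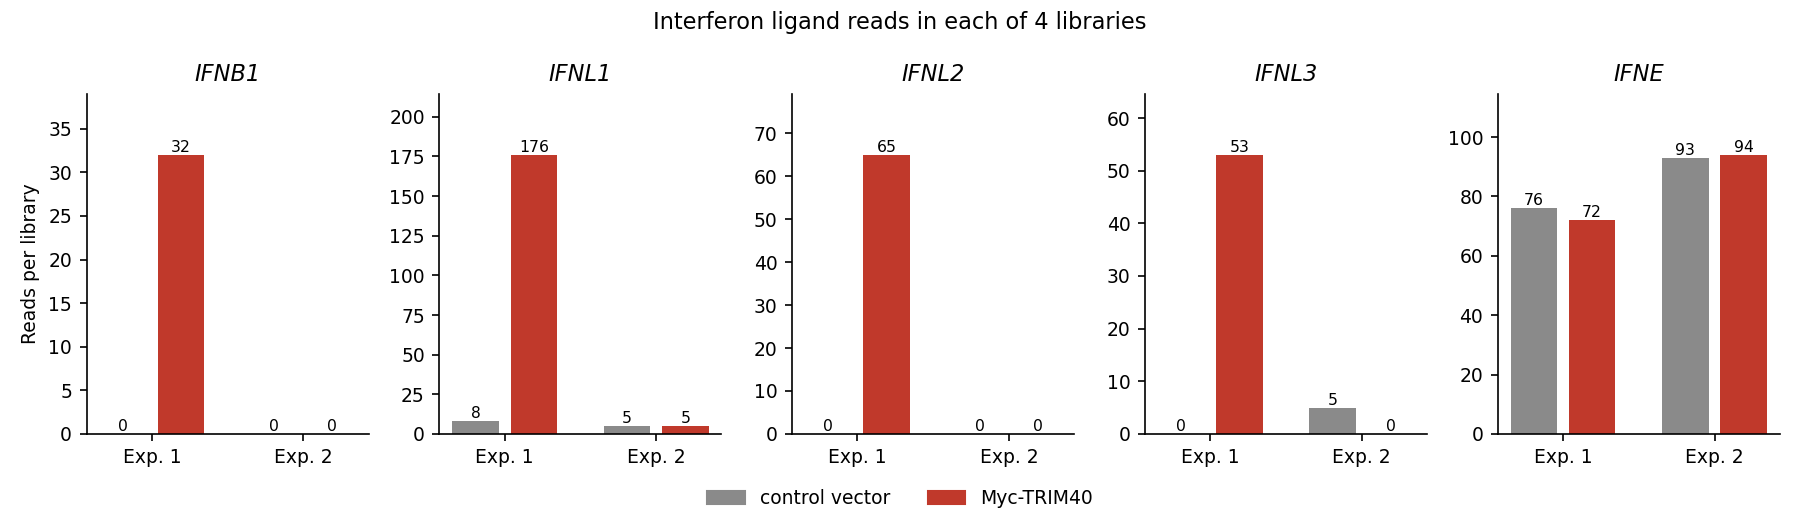
Reads of the 5 interferon ligands (vertical axes, not normalized, each starting at 0 with its own scale) in the control vector (grey) and Myc-TRIM40 (red) libraries of experiments 1 and 2. IFNB1, IFNL1, IFNL2 and IFNL3 stood at 32, 176, 65 and 53 reads in the experiment 1 Myc-TRIM40 library and at 8 or fewer in the other libraries, and IFNE was between 72 and 94 throughout.

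These 4 ligands were too scarce in 3 of the 4 libraries to pass the filter on low counts, and their difference between conditions was not tested in the main fit. All of it rests on the experiment 1 Myc-TRIM40 library, without which the 4 genes sum to 8 and 10 reads in the control libraries and 5 reads in the remaining Myc-TRIM40 library. With no filter on low counts they could be fitted, with adjusted p = 0.804 for IFNB1, IFNL1 and IFNL2 and adjusted p = 0.876 for IFNL3 (quasi-likelihood test of edgeR, Benjamini-Hochberg adjustment). That library also differed from the rest in other genes. Over all 27685 genes, 35 (0.126%) had at least 30 reads there and at most 10 in each other library, against 3 such genes for the control library of experiment 1, 11 for that of experiment 2 and 3 for the experiment 2 Myc-TRIM40 library. This count was devised after the values were seen, so that the 4 ligands meet it by construction. IFNL1 had the most reads of the 35, while IFNL2 ranked 8, IFNL3 ranked 10 and IFNB1 ranked 28. Others of the 35 were TNF and IL1A, inflammatory cytokines, and ZBP1, a sensor of double-helical nucleic acid in the Z form (all 3 named after their values were seen). TNF had 2, 46, 10 and 8 reads, and ZBP1 had 0, 97, 0 and 5 reads, in the order control and Myc-TRIM40 of experiment 1, then control and Myc-TRIM40 of experiment 2.

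IFNE (Entrez gene 338376, chromosome 9 from 21480839 to 21482312) encodes IFN-epsilon, which epithelia of the reproductive tract make constitutively and which is not induced by the usual viral sensors. It was the only one of the 5 ligands with more than 8 reads in every library. The counts were 76 in control and 72 in Myc-TRIM40 cells in experiment 1, and 93 and 94 in experiment 2. Normalized for library size these were 1.24 and 1.15 RPM in experiment 1 and 1.46 and 1.46 in experiment 2, so the groups overlapped and the experiments lay further apart than the conditions. The log2 fold change was -0.06 (standard error, SE, 0.37, adjusted p = 0.987 from edgeR), and the ratios within the experiments were 0.922 (0.659 to 1.29) and 1.00 (0.744 to 1.35). IFNE lies within the span of the long noncoding gene MIR31HG, which had between 408 and 623 reads. Its log2 fold change was -0.24 (SE 0.25, adjusted p = 0.899). Reads in the shared stretch cannot be assigned with certainty unless strand was used in counting, which is not given in the sources used here.

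The remaining interferon genes of the tables were nearly silent. Of 17 other ligands (13 IFN-alphas, IFNW1, IFNK, IFNG and IFNL4), 14 had no read in any library and 16 had at most 3 in every library. IFNL4, which lies 1236 bases from IFNL3 on chromosome 19, had 11 reads in the experiment 1 Myc-TRIM40 library and 0 in the other 3. IFN-gamma, the ligand of the receptor that contains IFNGR1, had 0 reads throughout.

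All 5 receptor chains were present in every library. By FPKM, which corrects for transcript length, their order was the same in all 4 libraries, with IFNGR1 highest, then IL10RB, IFNAR1, IFNAR2 and IFNLR1. IFNGR1 ranged from 28.7 to 42.5 FPKM and IL10RB from 6.43 to 8.02 FPKM. IFNAR1 ranged from 3.96 to 5.58 FPKM and IFNAR2 from 3.30 to 4.00 FPKM, so that the ranges of these neighbours overlapped. IFNLR1 ranged from 0.643 to 1.51 FPKM, and IFNE, from 0.775 to 0.990 FPKM, was above IFNLR1 only in the control library of experiment 2. In the experiment 1 Myc-TRIM40 library the IFNL1 level of 3.27 FPKM came close to that of IFNAR2 (3.98 FPKM), whereas in the other libraries IFNL1 was between 0.0673 and 0.146 FPKM.

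**Figure D2:**
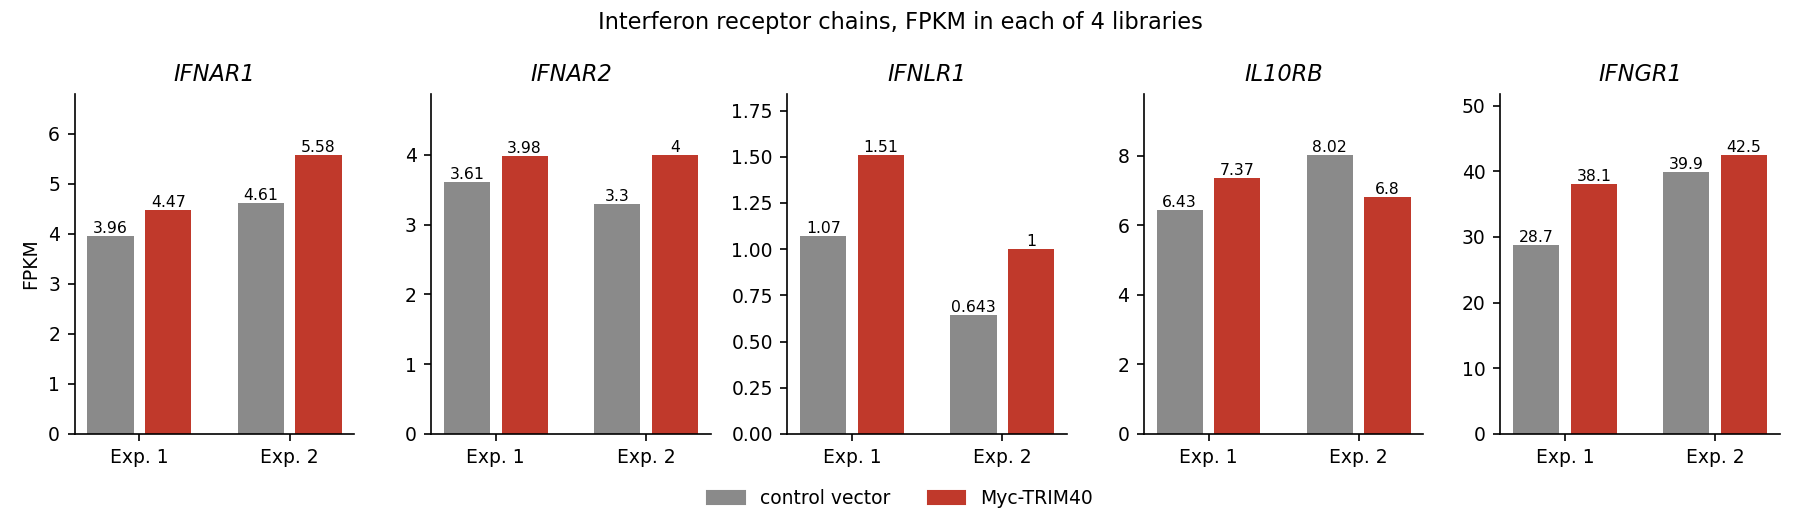
FPKM of the 5 receptor chains (vertical axes, each starting at 0 with its own scale) in the control vector (grey) and Myc-TRIM40 (red) libraries of experiments 1 and 2. IFNAR1, IFNAR2, IFNLR1 and IFNGR1 were higher in the Myc-TRIM40 library of both experiments on this scale, and IL10RB was higher in experiment 1 (7.37 against 6.43) and lower in experiment 2 (6.80 against 8.02).

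IFNAR1 (Entrez gene 3454, chromosome 21 from 34697214 to 34732128) encodes the signalling chain of the type I receptor that carries TYK2. It had 1509 reads in control and 1708 in Myc-TRIM40 cells in experiment 1, and 1950 and 2184 in experiment 2. Normalized, these were 24.7 and 27.2 RPM in experiment 1 and 30.6 and 34.0 in experiment 2. Each Myc-TRIM40 library was above its own control, but the groups overlapped, since the second control library exceeded the first Myc-TRIM40 library. The ratios were 1.10 (1.03 to 1.18) and 1.11 (1.04 to 1.18), and the log2 fold change was 0.15 (SE 0.21, adjusted p = 0.92 from edgeR).

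IFNAR2 (Entrez gene 3455, chromosome 21 from 34602200 to 34636818) encodes the high-affinity chain of the type I receptor, which docks JAK1 and STAT2. It had 517 reads in control and 623 in Myc-TRIM40 cells in experiment 1, and 526 and 615 in experiment 2. The normalized values were 8.47 and 9.94 RPM in experiment 1 and 8.25 and 9.56 in experiment 2. IFNAR2 was the only one of the 6 tested members whose groups did not overlap, both Myc-TRIM40 libraries being above both controls, an arrangement shared by 11.0% of the 14868 genes tested (the reverse arrangement was found for 9.67%). The ratios were 1.17 (1.04 to 1.32) and 1.16 (1.03 to 1.3). The log2 fold change of 0.22 was as large as its SE of 0.22 (adjusted p = 0.892 from edgeR).

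IFNLR1 (Entrez gene 163702, chromosome 1 from 24480647 to 24513765) encodes the chain that makes a cell responsive to type III interferon. It had 305 reads in control and 429 in Myc-TRIM40 cells in experiment 1, and 202 and 293 in experiment 2. Normalized values were 5.00 and 6.84 RPM in experiment 1 and 3.17 and 4.56 in experiment 2, so the second Myc-TRIM40 library was still below the first control library. The ratios of 1.37 (1.18 to 1.59) and 1.44 (1.20 to 1.73) were the highest of the receptor chains in both experiments. The log2 fold change was 0.49 (SE 0.25, unadjusted p = 0.0813, adjusted p = 0.888 from edgeR).

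IL10RB (Entrez gene 3588, chromosome 21 from 34638665 to 34669539) encodes the second chain of the type III receptor and lies between IFNAR2 and IFNAR1, 1846 bases from the former and 27674 bases from the latter. It had 790 reads in control and 906 in Myc-TRIM40 cells in experiment 1, and 1092 and 856 in experiment 2. The experiments went opposite ways, with ratios of 1.12 (1.01 to 1.23) and 0.777 (0.71 to 0.85), and the counting intervals did not meet. The log2 fold change was -0.10 (SE 0.23, adjusted p = 0.954 from edgeR). In experiment 2 the chains of the type III receptor thus went opposite ways, with IFNLR1 higher and IL10RB lower in Myc-TRIM40 cells.

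IFNGR1 (Entrez gene 3459, chromosome 6 from 137518621 to 137540567) encodes the ligand-binding chain of the IFN-gamma receptor. It had 3802 reads in control and 5066 in Myc-TRIM40 cells in experiment 1, and 5864 and 5786 in experiment 2. Normalized values were 62.3 and 80.8 RPM in experiment 1 and 92.0 and 90.0 in experiment 2, and the first control library stood below the other 3. The ratios were 1.3 (1.24 to 1.35) and 0.978 (0.943 to 1.01), and the log2 fold change was 0.17 (SE 0.22, adjusted p = 0.91 from edgeR). In experiment 2 the direction of IFNGR1 depends on the scaling, since by FPKM it was 39.9 in control and 42.5 in Myc-TRIM40 cells.

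**Figure D3:**
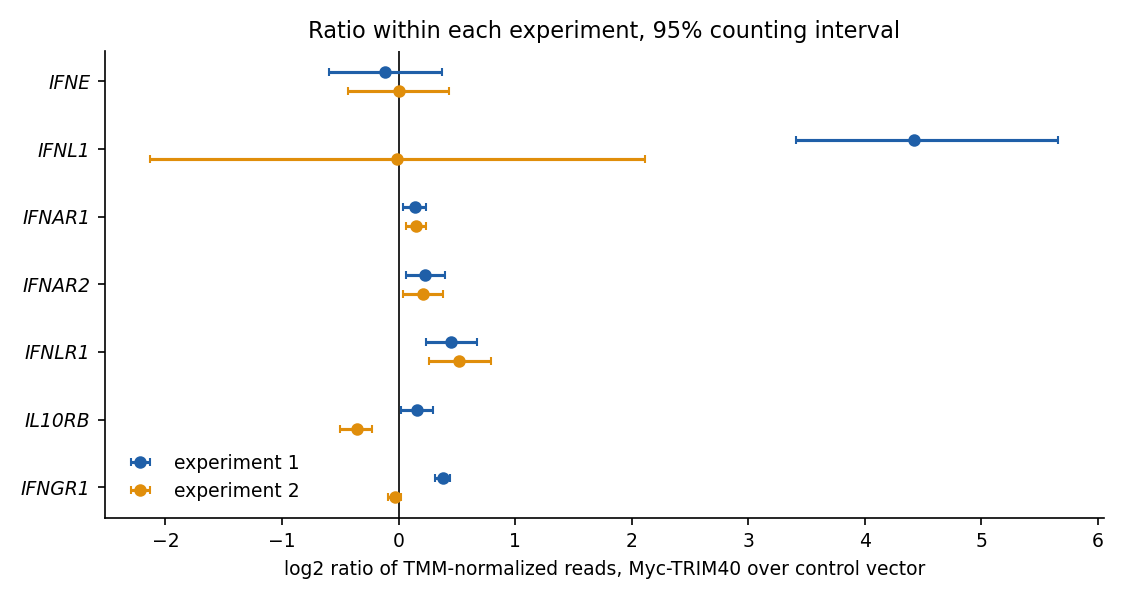
Ratio of TMM-normalized reads, Myc-TRIM40 over control vector, on a log2 scale (horizontal axis) in experiment 1 (blue) and experiment 2 (orange), with 95% counting intervals as bars. IFNAR1, IFNAR2 and IFNLR1 had ratios above 1 in both experiments, IL10RB and IFNGR1 differed between them, and IFNL1 was 21.4-fold higher in experiment 1 but 0.991-fold in experiment 2. IFNB1, IFNL2 and IFNL3 are left out because each had 0 reads in a library of either experiment, so no ratio was formed without the floor of 3 reads.

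Of the 10 members 6 were tested, and at an adjusted p under 0.05 edgeR called 0 of them higher (background 0.0404% of 14868 genes) and 0 lower (0.0202%). DESeq2 and limma also called 0 in each direction, against 0.303% of genes called higher and 0.0605% lower by DESeq2. At an unadjusted p under 0.05 in edgeR, 0 members passed, against 3.41% of genes higher and 1.13% lower. At a ratio of at least 1.5, 0 of the 6 were higher in experiment 1 (10.1% of genes) or experiment 2 (15.1%), 0 were lower in experiment 1 (3.1%) or experiment 2 (10.1%), and 0 passed in both experiments, where 2.99% of genes did so upward and 0.706% downward. The 6 tested members had a median log2 fold change of 0.16, against 0.04 over all genes tested, with 4 positive and 2 negative values.

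IFNAR2 and IFNLR1 are each spliced into forms with different functions. The 6 listed IFNAR2 transcripts fall into 3 kinds by the coding sequence of the matching GENCODE transcript. Variants 1 and 4 encode the full-length signalling chain of 515 amino acids, variants 2 and 3 a form of 331 amino acids with a short cytoplasmic tail, and variants 5 and 6 a soluble form of 239 amino acids. In control cells variant 1 took 28.8% and variant 4 took 25.7% of IFNAR2 reads in experiment 1, and 27.4% and 30.4% in experiment 2. In Myc-TRIM40 cells of experiment 1 variant 1 was at 55.2% (51.2 to 59.2, exact binomial counting interval) and variant 4 was at 8.35% (6.30 to 10.8), whereas in experiment 2 they were at 30.9% and 29.4%.

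The shift in experiment 1 was mostly between transcripts that encode the same protein. Summed, the 515-residue form had 54.5% of IFNAR2 reads in control and 63.6% in Myc-TRIM40 cells in experiment 1, and 57.8% and 60.3% in experiment 2. The 331-residue form had 26.1% and 15.7% in experiment 1 and 26.2% and 20.8% in experiment 2, and the soluble form had 19.3% and 20.7%, then 16.0% and 18.9%. The full-length share was thus higher, and the short-tailed share lower, in the Myc-TRIM40 library of each experiment, with no test of the difference. Read shares favour longer transcripts, and variants 1 and 4 are 2920 and 2966 bases long against 1442 and 1396 for variants 2 and 3. As shares of FPKM in control cells of experiment 1, variants 1 and 4 took 22.5% and 19.8%. Variants 2 and 3 took 18.7% and 23.3%. The reads were apportioned between overlapping transcripts by the authors' software, and the counting intervals do not include that uncertainty.

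For IFNLR1, variant 1 encodes the full-length chain of 520 amino acids and variant 3 a soluble form of 244 amino acids, while variant 2 had no reads. The soluble form took 27.9% of IFNLR1 reads (22.9 to 33.3) in control and 26.6% (22.5 to 31.0) in Myc-TRIM40 cells in experiment 1. In experiment 2 it took 47.0% (40.0 to 54.2) in control and 24.9% (20.1 to 30.3) in Myc-TRIM40 cells. The second control library stood apart from the other 3. Reads of the full-length form were 220 in control and 315 in Myc-TRIM40 cells in experiment 1, and 107 and 220 in experiment 2. Reads of the soluble form were 85 and 114, then 95 and 73. As apportioned by the authors' software, the higher IFNLR1 count of Myc-TRIM40 cells in experiment 2 thus lay in the full-length form. The 2 transcripts overlap, and the counting intervals do not include the uncertainty of apportioning reads between them.

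**Figure D4:**
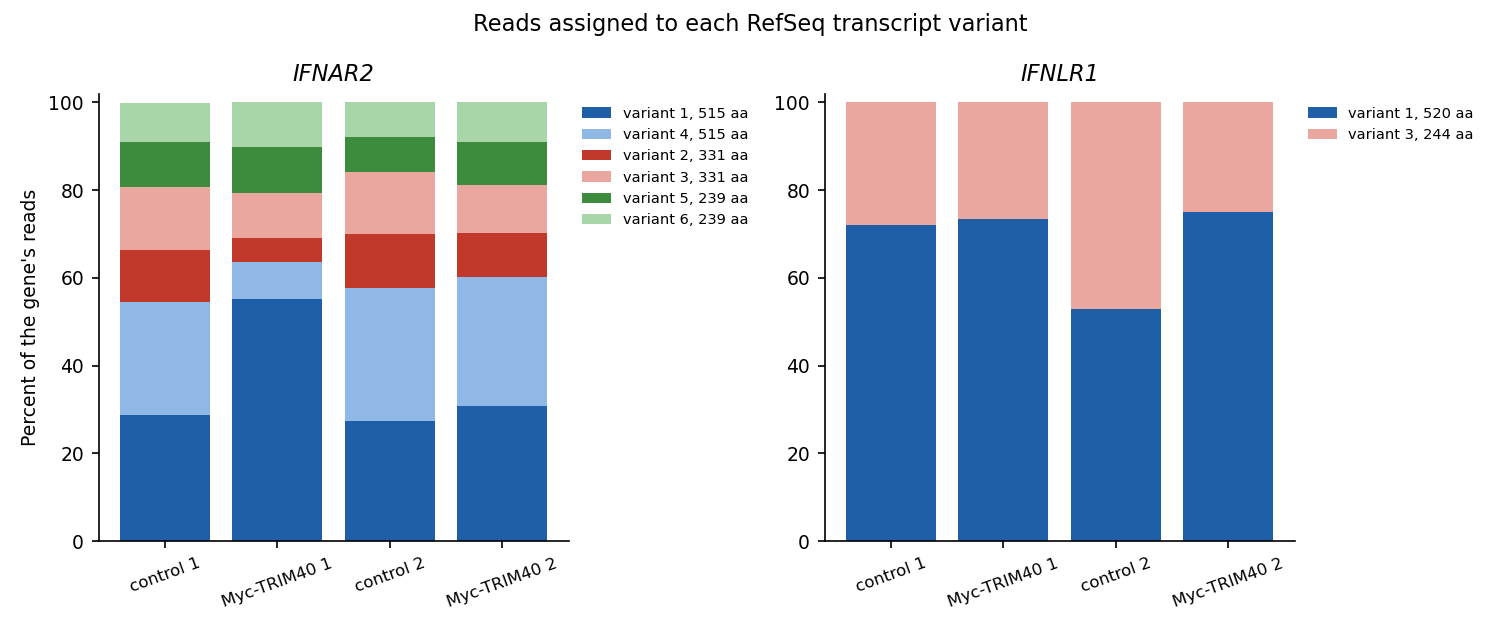
Percent of IFNAR2 reads (left) and IFNLR1 reads (right) assigned to each RefSeq transcript variant in the 4 libraries, numbered by experiment, with the length of the encoded protein in amino acids (aa). Variant 1 of IFNAR2 took 55.2% in the experiment 1 Myc-TRIM40 library and at most 30.9% elsewhere, and variant 3 of IFNLR1 took 47.0% in the control library of experiment 2 and at most 27.9% elsewhere.

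The genes around the receptors give the setting of these values. Of 7 other class II cytokine receptor genes 5 were tested and 0 were called by edgeR or DESeq2 or had an unadjusted p under 0.05, with a median log2 fold change of 0.16. IFNGR2, the partner of IFNGR1, had a log2 fold change of -0.02 (SE 0.22), and IL22RA1, which pairs with IL10RB to bind IL-22, one of 0.18 (SE 0.21). The 3 largest were IL20RB at 0.34, IL22RA1 and F3 (tissue factor) at 0.16. IL10RA, the other chain of the IL-10 receptor, had 0, 15, 0 and 2 reads in the order used above and was not tested.

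Downstream of both receptors, 7 genes of proximal signalling were tested. In edgeR 0 were called and 3 were higher at an unadjusted p under 0.05 (3.41% of all genes), and DESeq2 called 2, IRF9 included (adjusted p = 0.00303). IRF9 had 963 reads in control and 4360 in Myc-TRIM40 cells in experiment 1, then 953 and 1714 in experiment 2 (log2 fold change 1.49, SE 0.32, adjusted p = 0.395 from edgeR). STAT2 had a log2 fold change of 0.76 (SE 0.24, adjusted p = 0.888). JAK1 and TYK2 had 0.34 and 0.15. Of 8 feedback inhibitors 7 were tested, of which edgeR called 0, with 1 at an unadjusted p under 0.05, and DESeq2 called 1, USP18 (adjusted p = 0.00879). USP18, which blocks the type I receptor at IFNAR2, had 413 and 2561 reads in experiment 1, then 376 and 638 in experiment 2 (1.68, SE 0.41, adjusted p = 0.543). SOCS3 had a log2 fold change of 0.60 and PTPN1 and PTPN11 ones of 0.20, and SOCS1 was not tested, with 0, 25, 6 and 10 reads.

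Among 18 genes that sense nucleic acids or drive interferon genes, edgeR called 0, with 5 higher at an unadjusted p under 0.05, and DESeq2 called 3. The RNA sensors DDX58 (RIG-I), IFIH1 (MDA5) and DHX58 (LGP2) had log2 fold changes of 1.82, 1.80 and 1.66, with SEs of 0.48, 0.45 and 0.37 and adjusted p = 0.648, 0.587 and 0.444 from edgeR. These were the 3 that DESeq2 called (adjusted p = 0.00314, 0.00247 and 0.00835). IRF7 had 1.26 and TLR3 had 1.15. These values pool experiments that differed. For DDX58 the log2 ratio was 2.93 in experiment 1 and 0.70 in experiment 2. In the same order IFIH1 had 2.85 and 0.74, DHX58 2.44 and 0.83, IRF7 2.25 and 0.27, and TLR3 1.57 and 0.74. IRF3, TBK1 and RELA, which act at the IFNB1 promoter and its activation, had log2 fold changes of -0.26, 0.16 and 0.12. The 8 genes of receptor trafficking and turnover, among them BTRC, the ligase subunit that marks IFNAR1 for degradation, had a median of 0.06, with 0 called by edgeR or DESeq2 and 0 at an unadjusted p under 0.05. Their 3 largest were RACK1 at -0.37, BTRC at 0.32 and PRKD2 at 0.22.

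All 14 listed ISGs were tested. At an adjusted p under 0.05 edgeR called 0 and DESeq2 called 4 (RSAD2, OAS1, OAS3 and IFIT3), and 13 were higher at an unadjusted p under 0.05 in edgeR, against 3.41% of all genes. Their median log2 fold change was 2.27, against 0.04 over all genes, with medians of 3.66 in experiment 1 and 1.02 in experiment 2. ISGs were chosen with earlier results of these libraries known, in which ISGs were higher, so this list is not independent evidence of its direction. The 3 largest were IFI44L (4.64, SE 1.03, adjusted p = 0.441 from edgeR), RSAD2, which encodes the antiviral enzyme viperin (4.29, SE 0.58, adjusted p = 0.0795), and OAS2, which makes the second messenger that activates RNase L (3.98, SE 0.77, adjusted p = 0.293). OAS2 had 386 and 20917 reads in experiment 1, then 379 and 1780 in experiment 2. In experiment 2 IFNB1 and the IFN-lambdas together had 10 reads in control and 5 in Myc-TRIM40 cells. There 9 of the 14 ISGs were at least 1.5-fold higher in Myc-TRIM40 cells (15.1% of all genes), and 0 were lower by that much (10.1%). Of the 14 ratios 13 were above 1, where the median log2 ratio over all genes tested was 0.03. ISG15 went the other way, with a log2 ratio of -0.28. In experiment 1, where the same ligands had 8 and 326 reads, all 14 ISGs were at least 1.5-fold higher (10.1% of all genes). A link between the ligand reads and the ISG levels was not tested, and secreted interferon was not measured in these libraries.

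**Figure D5:**
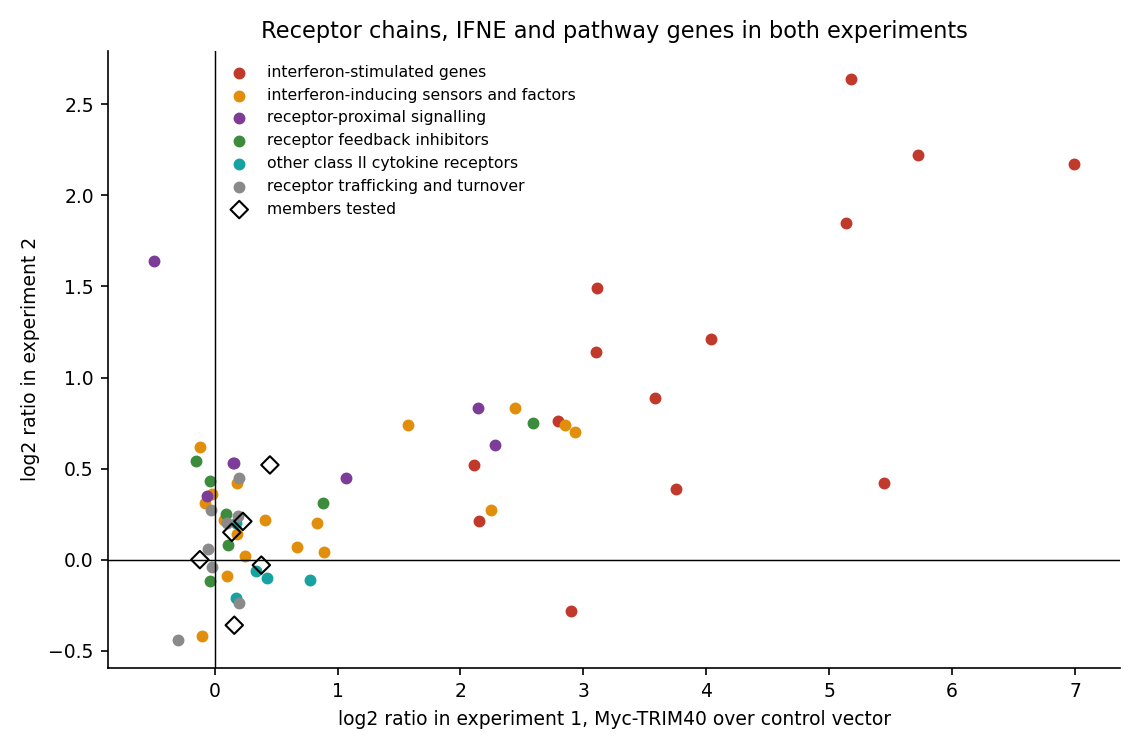
Log2 ratio of TMM-normalized reads, Myc-TRIM40 over control vector, in experiment 1 (horizontal axis) and experiment 2 (vertical axis) for each tested gene of the pathway lists (coloured points) and for the 6 tested members (open diamonds). The members lie between -0.12 and 0.45 in experiment 1 and between -0.36 and 0.52 in experiment 2, and the ISGs have a median of 3.66 in experiment 1 and 1.02 in experiment 2.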

How the data were processed

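RNA was sequenced from 4 HT-29 libraries with a TruSeq stranded mRNA kit. The authors deposited the number of reads assigned to each RefSeq transcript as whole numbers, which are estimated counts that were not normalized, and FPKM, the count scaled for transcript length and library total. For experiment 2 the authors also deposited TPM, FPKM rescaled to a common sum, which was not used here. The submitters' processing notes name hg19, HISAT2 2.1.0 and StringTie 1.3.4d without saying which step each served. Transcript counts were summed per gene here.

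The test was edgeR 4.0.16 (glmQLFit, glmQLFTest, R 4.3.3, limma 3.58.1) with TMM factors, filterByExpr, Benjamini-Hochberg adjustment over 14868 genes and a block for the experiment. Each SE was derived as the absolute log2 fold change divided by the square root of the F statistic of that test. Libraries were paired by the labels' replicate numbers and by file, each file holding a library of either condition, and same-numbered libraries deviated together (correlation 0.45). A fit on 4 libraries leaves 1 residual degree of freedom, and an exact permutation test of 2 against 2 libraries cannot give a two-sided p below 0.333. Ratios within an experiment used TMM-normalized reads, a floor of 3 reads per library and 95% Clopper-Pearson intervals, which cover counting error only. Depth was between 60954602 and 67424698 reads, so 3 reads were between 0.0445 and 0.0492 RPM.

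Named were all members, TRIM40, called list genes and the 3 tested genes of each list with the largest change, other ligands above 3 reads, transcripts with at least 10% of a member's reads and genes overlapping a member; further list genes were named for their role in the pathway, after their values were seen. A few values that this rule covers are left out. Members and lists were chosen with earlier results of these data known. The fitting code was also run on simulated counts drawn without a difference between experiments, which does not measure its error in these data. Sequences were matched to the members by Entrez gene (RefSeq promoters) or by GENCODE's table of RefSeq transcripts. Alternatives were no block, DESeq2 1.42.0, upper-quartile factors, no filter, limma on log2(FPKM + 1), IFNL2 and IFNL3 summed, other pseudocounts and thresholds, shares of FPKM, and each experiment left out. A filter of at least 10 reads in 1 library and the count of genes seen in 1 library were added after seeing the data. Python 3.11.15 with pandas 2.3.3, numpy 2.4.6 and scipy 1.17.1 was used for the rest. Microarrays and tissue samples were not analysed here.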

Additional observations from a re-analysis of the deposited data

Results flagged for a closer look

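IFNL4, a type III interferon gene next to IFNL3, had 11 reads in the experiment 1 Myc-TRIM40 library and 0 in both control libraries and in the other Myc-TRIM40 library. It stands out because these reads belong to a gene outside the 10 compared and exceed the floor of 3 reads used for a count of 0 in the controls. With 11 reads in 1 library it passed no filter and was not tested.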

How the results depend on the processing

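The comparisons rest on 2 experiments. IFNB1 and IFNL1 to IFNL3 had 8 reads or fewer in 3 of 4 libraries, where a count of 0 was treated as up to 3 reads. None of the 6 tested members was called, in either direction, in any alternative that gave a test. The 4 scarce ligands could be fitted only with no filter or with at least 10 reads in 1 library, and were not called there. Summed, IFNL2 and IFNL3 still did not pass the filter, so that alternative could not call them. Without the replicate block 0 members and 0 pathway genes were called, the log2 fold changes being 0.15 for IFNAR1, 0.22 for IFNAR2, 0.48 for IFNLR1, -0.12 for IL10RB, 0.15 for IFNGR1 and -0.05 for IFNE, so the pairing changed no call of a member or a listed pathway gene. DESeq2 called 10 pathway genes (among them 4 ISGs, 3 sensors, IRF9 and USP18) where edgeR called 0, and the cause was not tested. Over all genes, edgeR called 6 higher and 3 lower, DESeq2 45 and 9, limma 3 and 0, and edgeR without the block or without the filter 0 and 0. IFNE changed sign with limma on log2(FPKM + 1), at 0.01. Leaving out each experiment in turn gave -0.12 to 0.00 for IFNE, -0.36 to 0.16 for IL10RB and -0.03 to 0.38 for IFNGR1. With at least 10 reads in 1 library as the filter, adjusted p was 0.885 for IFNB1 and IFNL1, 0.541 for IFNL2 and 0.896 for IFNL3 (edgeR). As shares of summed FPKM, 15 of 32 transcript shares moved beyond their counting interval, and variant 1 of IFNAR2 took 22.5% and 47.2% in control and Myc-TRIM40 cells of experiment 1 and 21.5% and 25.3% in experiment 2. Adding reads of read-through genes was not run, because the tables list none that joins a member to a neighbour.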
